A study of Mus musculus with 30 samples.

Results

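Oligodendrocyte precursors are the dividing glial cells of the brain that give rise to myelin-forming oligodendrocytes. Here 8 genes that mark this lineage were followed in RNA-seq of primary mouse microglia cultures: Pdgfra, Cspg4, Ptprz1 and Gpr17, which encode cell-surface proteins, and Sox10, Olig1, Olig2 and Nkx2-2, which encode transcription factors. They were found by gene symbol in a deposited table of 13788 genes, and all 8 were present and passed the filter on low values.

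The cultures were made from the brains of mice labelled PD-1 KO or WT, and the microglia, the resident macrophages of the brain, were shaken off the other cells after several days of growth. The PD-1 protein, made from Pdcd1, is a receptor that restrains immune cells. The 10 groups of 3 libraries each, 30 in all, were PD-1 KO and WT at 0 h without treatment, PD-1 KO and WT after 2 h with amyloid-beta, PD-1 KO and WT after 2 h without it, PD-1 KO and WT after 8 h with amyloid-beta, and PD-1 KO and WT after 8 h without it. Amyloid-beta, the peptide that forms plaques in Alzheimer disease, was given in conditioned medium. The labels give neither the medium of the untreated cultures nor the strain, the age of the mice, the allele, or whether the 3 libraries of a group came from separate animals, so p-values here measure library-to-library spread, which may be technical.

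Platelet-derived growth factor binds the receptor made from Pdgfra and keeps precursors dividing. Cspg4 encodes the NG2 proteoglycan, and Ptprz1 encodes a receptor phosphatase that binds pleiotrophin, midkine, contactin 1 and tenascin C. Olig2 and Sox10 set and maintain the identity of the lineage, Olig1 and Nkx2-2 act in its maturation, and the receptor Gpr17 is made by precursors that are starting to differentiate. Several of the genes are also known from other cells: Pdgfra from fibroblasts, Cspg4 from pericytes and Ptprz1 from astrocytes.

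Microglia genes were detected at high levels in every library. All 12 genes of a microglia list were in the table, and their summed normalised value (read count divided by a size factor for each library) was 61263 to 113595 across the 15 PD-1 KO libraries and 84543 to 144570 across the 15 WT libraries. The summed value of the 8 precursor genes was 2348 to 4487 across PD-1 KO libraries and 1235 to 4619.9 across WT libraries. Library depth over the genes of the table was 4227019 to 48509985 reads, with a median of 9763779 for PD-1 KO and 9442385 for WT libraries. Pdcd1 went against the labels: it ranged over 6.02 to 25.3 (median 12.8) in the 15 libraries with the PD-1 KO label and was at 1, the floor of the table, in all 15 with the WT label. The labels do not say which part of Pdcd1 was deleted, so PD-1 KO and WT below mean the label on the library. The library numbers in the titles are 1707 to 1724 at 0 h and 2 h and 1784 to 1795 at 8 h, and the 8 h time point and that gap in numbering cannot be told apart. In a bulk culture, fewer cells of a type and less RNA per cell cannot be told apart either.

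The genes lie on 7 chromosomes of GRCm38, and Olig2 and Olig1 are neighbours on chromosome 16, with 41.1 kb between the end of Olig2 and the start of Olig1. The promoters of 5 of the 8 genes were found in the RefSeq table of GRCm38.p6 (Pdgfra, Cspg4, Ptprz1, Olig2 and Nkx2-2). The windows run from 250 bases before the start site to 50 after it. Pdgfra and Olig2 are shown because their mRNAs fell with amyloid-beta in WT libraries at 8 h, and Cspg4 because its mRNA did not pass the test there. Pdgfra is at chr5:75152001-75152300, Olig2 at chr16:91225300-91225599 and Cspg4 at chr9:56864854-56865153, all on the plus strand. Each sequence is written 5′ to 3′, and capitals mark the match to a searched motif.
Pdgfra: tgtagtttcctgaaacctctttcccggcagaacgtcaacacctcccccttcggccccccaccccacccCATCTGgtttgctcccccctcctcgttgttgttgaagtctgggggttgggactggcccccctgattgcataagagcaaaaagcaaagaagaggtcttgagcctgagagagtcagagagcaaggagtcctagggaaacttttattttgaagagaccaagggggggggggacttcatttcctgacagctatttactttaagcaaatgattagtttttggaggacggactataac
Olig2: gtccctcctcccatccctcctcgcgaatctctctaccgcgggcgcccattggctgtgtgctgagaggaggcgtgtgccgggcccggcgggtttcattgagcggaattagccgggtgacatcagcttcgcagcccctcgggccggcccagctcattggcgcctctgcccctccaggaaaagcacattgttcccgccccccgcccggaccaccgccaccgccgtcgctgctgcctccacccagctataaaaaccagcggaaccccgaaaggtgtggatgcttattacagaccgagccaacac
Cspg4: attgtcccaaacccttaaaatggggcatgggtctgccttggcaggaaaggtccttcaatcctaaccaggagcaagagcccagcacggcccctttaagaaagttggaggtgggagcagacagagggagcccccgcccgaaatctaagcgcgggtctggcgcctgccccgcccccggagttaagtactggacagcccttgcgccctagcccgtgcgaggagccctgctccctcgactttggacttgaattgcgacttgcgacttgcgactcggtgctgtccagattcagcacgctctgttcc

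The motifs searched on both strands were CAGCTG and CAGATG, which are forms of the E-box that basic helix-loop-helix factors such as Olig2 bind, and ACAAAG, the core that Sox proteins bind. CAGATG was found in Pdgfra, 182 bases before the start site on the strand opposite to the gene (CATCTG in the window). It was also found in Nkx2-2, 220 bases before the RefSeq start site of its window. That window, chr2:147186353-147186652 on the minus strand, lies inside the annotated gene (chr2:147177546-147194243) and not at its outer end. No match to the other motifs was found in the 5 windows, and none of the 3 was found in those of Olig2, Cspg4 and Ptprz1. Of all 32851 promoters in the table, 17.2% held CAGATG, 16.3% held CAGCTG and 18.7% held ACAAAG. The Pdgfra window had 51.0% G and C and 5 CpG dinucleotides, against 65.0% and 25 in Olig2 and 60% and 17 in Cspg4, while the median over all promoters was 52.7% and 7.

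By the GRCm38 annotation, Pdgfra lies at chr5:75152292-75198215, Cspg4 at chr9:56865033-56899870, Ptprz1 at chr6:22875502-23052916, Olig1 at chr16:91269772-91271933 and Olig2 at chr16:91225457-91228677, all on the plus strand. Sox10 lies at chr15:79154908-79165240, Nkx2-2 at chr2:147177546-147194243 and Gpr17 at chr18:31942997-31949636, all on the minus strand.

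Levels between genes were compared per kb of exon, over all 30 libraries. Olig1 was the most abundant at 306 ± 119 per kb (SD), followed by Olig2 at 94.7 ± 42.8 and Ptprz1 at 92.7 ± 33.1. The order of these last 2 depended on the group: Ptprz1 had the higher mean in 4 of the 5 PD-1 KO groups (124 against 66.7 per kb at 2 h) and the lower one in all 5 WT groups (97.5 against 112 at 2 h). Cspg4 (41.9 ± 8.54), Pdgfra (41.3 ± 29.5) and Sox10 (40.3 ± 17.7) had similar means over all libraries, although the group means of Pdgfra ran from 5.32 to 85.1 per kb, and Nkx2-2 (6.89 ± 3.05) and Gpr17 (2.51 ± 2.44) were far lower. Pdgfra and Gpr17 had the widest spread relative to their mean, and Cspg4 the narrowest. WT at 8 h with amyloid-beta had the lowest mean of the 10 groups for all 8 genes; its libraries were apart from those of the next group for Sox10, Olig1, Gpr17, Nkx2-2 and Ptprz1 and overlapped them for Pdgfra, Olig2 and Cspg4. The gaps of Gpr17 and Nkx2-2 are too small to tell from counting error. For Gpr17 the nearest libraries were at 3.18 (3 reads) and 3.21 (4 reads), and for Nkx2-2 at 10.6 (10 reads) and 11.2 (14 reads). How many of all genes have this lowest group, or such gaps, was not counted. Most neighbours in the order of group means overlapped. For Cspg4 all 9 neighbouring pairs of groups did, and for Pdgfra 8 of 9 did, the break lying between PD-1 KO at 0 h (416) and WT at 2 h with amyloid-beta (706). Sox10, Olig1 and Olig2 had 2 such breaks each.

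**Figure D1:**
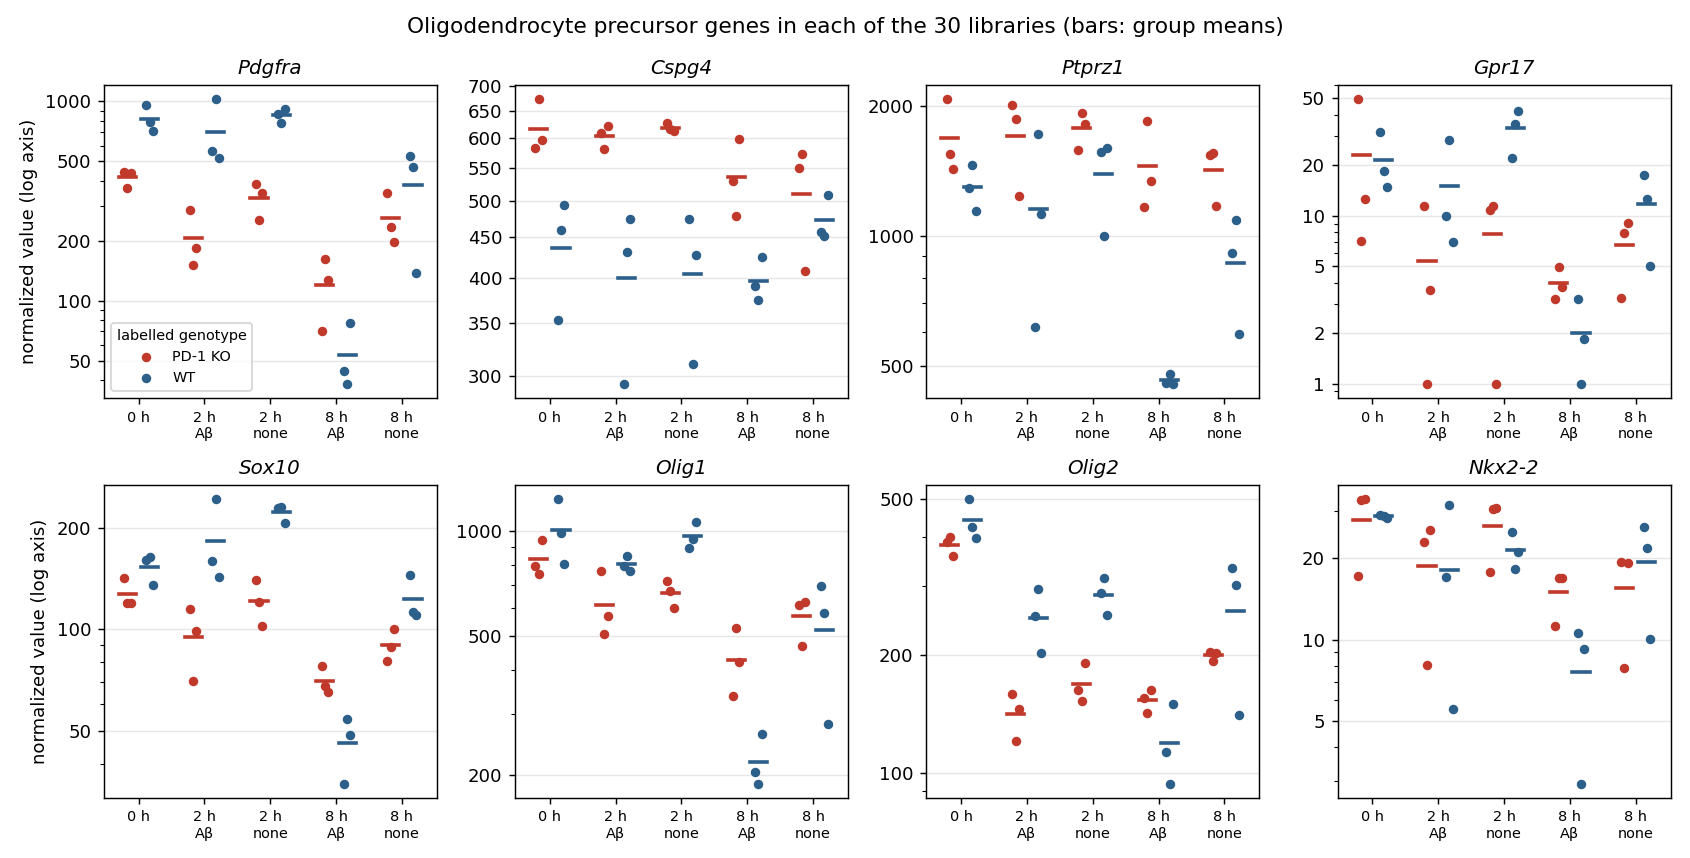
Normalised value (log axis) of each precursor gene in every library, with PD-1 KO left of WT in each condition; points are libraries, bars are means of 3 libraries, and Aβ is amyloid-beta. Pdgfra lies between 38.2 and 77.3 in WT libraries at 8 h with amyloid-beta, and the other libraries lie above 77.3 except the PD-1 KO library at 70.6 in the same condition.

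The first question was what amyloid-beta medium did to these genes. In WT cultures at 8 h, 4 of the 8 genes fell: the growth factor receptor gene Pdgfra to 0.140 of its mean without amyloid-beta, and the transcription factor genes Sox10 to 0.376, Olig1 to 0.422 and Olig2 to 0.462. The proteoglycan gene Cspg4, at 0.839 of its mean without amyloid-beta, did not pass the test. Differences below are log2(value + 1) with amyloid-beta minus without, tested with limma on all 30 libraries, with Benjamini-Hochberg adjustment over 13722 genes and a threshold of 0.05.

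Pdgfra was at 44.6, 38.2 and 77.3 in the WT libraries with amyloid-beta at 8 h, against 533, 471 and 138 in those without it. All 3 treated libraries were below all 3 untreated ones, of which replicate 3 was itself low. The difference was -2.65 ± 0.37 (SE; adjusted p = 0.000687). Cspg4 was at 390.5, 375 and 424 with amyloid-beta, against 457, 452 and 509 without it. The groups did not overlap, yet the difference of -0.25 (95% interval -0.57 to 0.07) did not pass the test (adjusted p = 0.51).

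Ptprz1 was at 456, 479 and 454 with amyloid-beta, against 913, 1089.5 and 592 without it. Its treated libraries were close together and all lower, with a difference of -0.85 ± 0.26 (adjusted p = 0.0853) that did not pass. Gpr17 was at 3.18, 1 and 1.86 with amyloid-beta, against 17.5, 12.7 and 5.01 without it, where 1 is the floor of the table. These treated libraries held at most 3 reads of the gene each, and its difference of -2.0 (interval -3.44 to -0.55) did not pass (adjusted p = 0.152).

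Among the transcription factors, Sox10 was at 35.0, 54.4 and 48.9 in WT libraries with amyloid-beta at 8 h, against 145, 113 and 110.3 without it. Olig1 was at 205, 189.7 and 263 with amyloid-beta, against 693, 583 and 281 without it. In neither gene did the groups overlap. Sox10 fell by 1.41 ± 0.20 on the log2 scale (adjusted p = 0.000687) and Olig1 by 1.15 ± 0.22 (adjusted p = 0.00478). Olig2 was at 114, 94.1 and 150.3 with amyloid-beta, against 333, 302 and 140.4 without it, so that 1 treated library was above the lowest untreated one, and it fell by 1.04 ± 0.21 (adjusted p = 0.00714). Nkx2-2 was at 10.6, 2.94 and 9.28 with amyloid-beta, against 26.2, 21.9 and 10.03 without it. It had few reads, the groups overlapped, and the difference of -1.29 ± 0.50 did not pass (adjusted p = 0.209).

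The 4 genes that fell were 4 of 8, while 2.05% of all 13722 tested genes fell in this comparison, and the median difference of the 8 genes was -1.22 against -0.0042 over all genes. All treated libraries were below all untreated ones in 6 of the 8 genes, as they were in 12.7% of all genes. The 8 genes were chosen with earlier results of these data known, so these shares are not independent support for the set. The low untreated library, WT 8 h replicate 3, made the differences smaller: without it, they were -3.27 for Pdgfra, -1.48 for Sox10, -1.55 for Olig1 and -1.43 for Olig2, and Ptprz1 passed as well at -1.11 (adjusted p = 0.0205). WT 8 h replicate 3 had the fewest reads of the 30 libraries (4227019) and the most genes at the floor (452). Replicates 1 and 2 of that group had 9442385 and 26702316 reads. Olig1 did not pass without WT 8 h replicate 1 (-0.90, adjusted p = 0.0796), and then 2 genes passed. Olig2 did not pass without WT 8 h replicate 1 (-0.81, adjusted p = 0.1), WT 8 h replicate 2 (-0.88, adjusted p = 0.0733) or WT 8 h amyloid-beta replicate 2 (-0.88, adjusted p = 0.0647). In a fit of these 6 libraries alone, Sox10 was the 1 gene that passed.

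In cultures labelled PD-1 KO at 8 h, none of the 8 genes passed the main limma test with amyloid-beta, and 1 had an unadjusted p under 0.05. Voom on the recovered reads also called 0, limma with array weights called 1, and 0.0583% of all genes passed the main test. Pdgfra was at 70.6, 161 and 127 with amyloid-beta, against 347, 234 and 198 without it. The groups did not overlap, and the difference was -1.15 (interval -1.90 to -0.40, adjusted p = 0.292). Sox10 was at 77.8, 68.0 and 65.2 with amyloid-beta, against 80.7, 88.4 and 100.4 without it, a difference of -0.35 (interval -0.75 to 0.06). Olig2 was at 156, 143 and 163 with amyloid-beta, against 203, 193 and 203 without it, a difference of -0.38 (interval -0.81 to 0.06). Pdgfra, Sox10 and Olig2 were the 3 genes of 8 whose treated libraries were all lower, and 8.07% of all genes were. Ptprz1 was at 1163, 1843 and 1339 with amyloid-beta, against 1539.9, 1554 and 1174 without it, and Cspg4 at 530.3, 478 and 599.7, against 551, 574 and 407. For both the groups overlapped, with differences of 0.01 (interval -0.53 to 0.55) and 0.08 (interval -0.24 to 0.40).

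The genotype difference of the 8 h amyloid-beta effect, PD-1 KO minus WT, was tested as an interaction. It was positive for all 8 genes, with a median of 0.96 against 0.014 over all genes, and 5 genes had an unadjusted p under 0.05. With limma 0 of the 8 genes, and 0% of all 13722, passed the adjusted threshold, as with voom. The largest difference was that of Pdgfra, at 1.5 (interval 0.44 to 2.56, adjusted p = 0.512), and Sox10, at 1.06 (interval 0.49 to 1.63), had the lowest adjusted p of the 8 (0.292). With limma's array weights, which give less weight to libraries that fit poorly, 3 of the 8 passed. A larger fall in WT than in PD-1 KO cultures was not shown by this test.

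**Figure D2:**
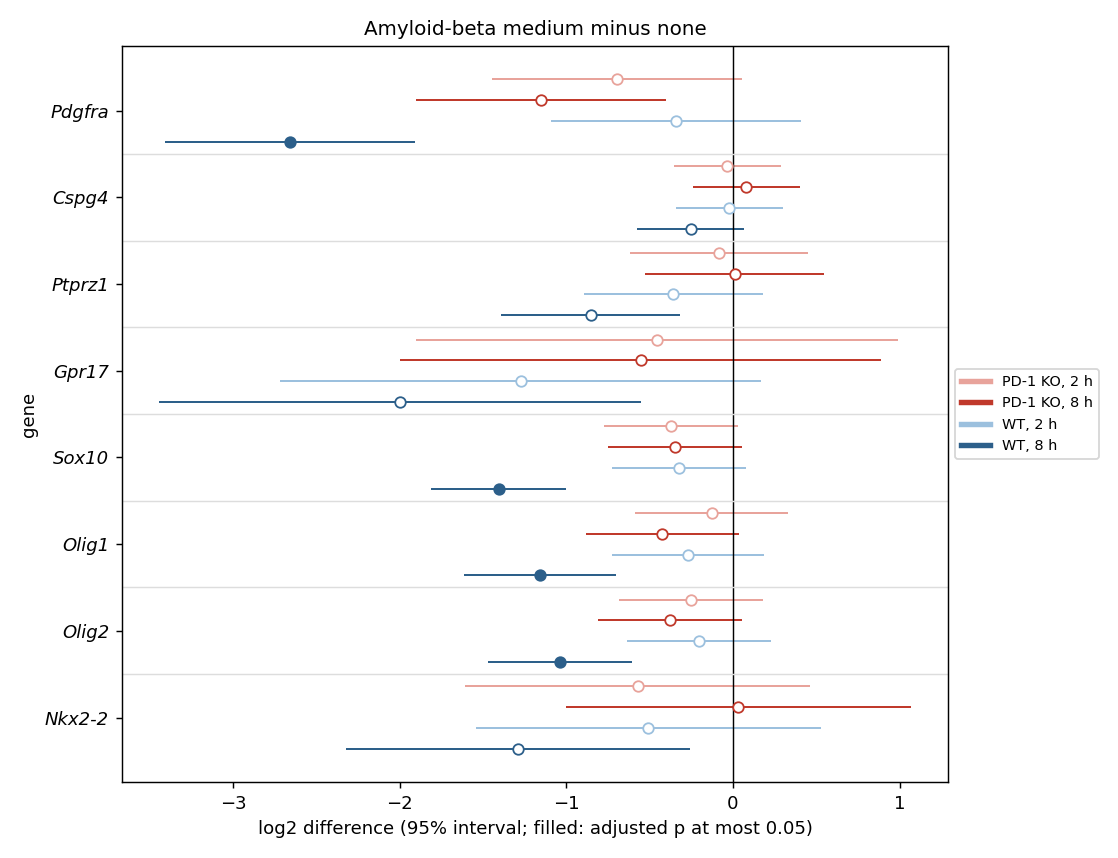
Log2 difference of each precursor gene with amyloid-beta minus without (points, with 95% intervals) in each labelled genotype at 2 h and 8 h; filled points passed the adjusted threshold. The filled points are Pdgfra (-2.65), Sox10 (-1.41), Olig1 (-1.15) and Olig2 (-1.04), all in WT at 8 h.

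At 2 h all 8 amyloid-beta differences were negative in both genotypes, with medians of -0.31 in PD-1 KO and -0.33 in WT cultures, and 0 of 8 genes passed in either with limma or voom, with none at an unadjusted p under 0.05. Over all genes 0% passed in either genotype. The most negative difference was that of Gpr17 in WT cultures, at -1.27 (interval -2.72 to 0.17). Gpr17 was at 9.97, 28.4 and 6.96 in WT libraries with amyloid-beta at 2 h, against 22.3, 35.2 and 42.1 without it, and the groups overlapped. With array weights, Gpr17 (-2.06, adjusted p = 0.0396) and Nkx2-2 (-1.41, adjusted p = 0.0367) passed in WT cultures at 2 h. Pdgfra was at 284, 151 and 183 in PD-1 KO libraries with amyloid-beta at 2 h, against 383, 253 and 346 without it. In WT libraries it was at 567, 1027 and 523 with amyloid-beta at 2 h, against 862, 776 and 922 without it. The groups overlapped in both genotypes, in WT through replicate 2 with amyloid-beta, which was also high in Ptprz1, at 1719.9 against 616 and 1124 in the other two. The genotype difference of the 2 h effect passed for 0 of 8 genes with limma and voom (none at an unadjusted p under 0.05), and for 0.0510% of all genes.

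The difference between the 8 h and the 2 h effect passed for 1 gene in WT cultures: for Pdgfra the effect was lower by 2.32 on the log2 scale (interval -3.38 to -1.26, adjusted p = 0.046), where 0.270% of all genes had a lower effect. The call was not stable: it was lost in 5 of 11 other settings and when each of 9 of the 12 libraries was left out in turn, with values of -1.96 to -2.93 over all leave-outs and adjusted p up to 0.208. These 9 were all 3 WT 2 h libraries, WT 2 h amyloid-beta replicates 2 and 3, WT 8 h replicates 1 and 2, and WT 8 h amyloid-beta replicates 1 and 2. Without WT 8 h replicate 3, Olig1 (-1.28) and Olig2 (-1.22) passed too. In PD-1 KO cultures 0 of the 8 genes and 0% of all genes passed, with none of the 8 at an unadjusted p under 0.05 and 0 by voom.

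The amyloid-beta groups were then compared directly between 8 h and 2 h. These comparisons were added after the values had been seen, and time cannot be told apart here from the gap in library numbers. In WT cultures 6 of the 8 genes fell, against 13.8% of all genes that fell. Pdgfra was at 44.6, 38.2 and 77.3 at 8 h, against 567, 1027 and 523 at 2 h, a difference of -3.70 ± 0.37 (adjusted p = 1.47e-07). Sox10 (-1.94), Olig1 (-1.88), Ptprz1 (-1.19), Olig2 (-1.06) and Gpr17 (-2.25) also fell, while Cspg4 had 0.02 (interval -0.30 to 0.34). The groups overlapped in none of the 6, and the share of all genes without overlap was not counted here. The call for Gpr17 was lost without WT 2 h amyloid-beta replicate 2 (-1.70) or without WT 8 h amyloid-beta replicates 2 (-1.99) or 3 (-2.24).

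In PD-1 KO cultures the same comparison passed for 0 of the 8 genes with limma and voom, 2 genes having an unadjusted p under 0.05, and for 1.71% of all genes. With array weights in limma, 4 of the 8 passed there. Pdgfra was at 70.6, 161 and 127 at 8 h, against 284, 151 and 183 at 2 h, and the groups overlapped. The change differed between the genotypes for 4 genes, and it was more negative in WT: the difference, PD-1 KO minus WT, was 2.89 ± 0.52 for Pdgfra (adjusted p = 0.0025), 1.54 ± 0.28 for Sox10 (adjusted p = 0.00264), 1.35 ± 0.31 for Olig1 (adjusted p = 0.0219) and 1.19 ± 0.30 for Olig2 (adjusted p = 0.0373). A positive difference passed in 1.33% of all genes. Those of Pdgfra (2.59 to 3.23) and Sox10 (1.32 to 1.70) passed whichever of the 12 libraries was left out. Olig1 lost its call in 6 of 12 leave-outs (values 1.19 to 1.52 over all 12): amyloid-beta PD-1 KO 2 h replicates 2 and 3, PD-1 KO 8 h replicates 2 and 3, and WT 8 h replicates 1 and 2. Olig2 lost it in 9 of 12 (1.03 to 1.37), all except PD-1 KO 2 h replicate 1, WT 2 h replicate 3 and WT 8 h replicate 3, again with amyloid-beta. Olig2 also lost it with quantile normalisation (adjusted p = 0.053), voom (adjusted p = 0.0634) and limma without a trend (adjusted p = 0.0688), and Olig1 without a trend (adjusted p = 0.0565). Without amyloid-beta, the genotype difference of the 8 h minus 2 h change passed for 0 of the 8 genes with limma and voom (2 at an unadjusted p under 0.05) and for 0.0219% of all genes. It was 1.03 for Pdgfra (interval -0.03 to 2.09), 0.76 for Olig1 (interval 0.12 to 1.41), 0.47 for Olig2 and 0.44 for Sox10. Of the 8 differences, 6 were positive and 2 negative. In untreated WT libraries, mean Pdgfra was 853 at 2 h and 380 at 8 h, and mean Olig1 966 and 519, while Cspg4 was at 404 and 473. Whether the genotype difference with amyloid-beta was larger than that without it was not tested.

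Other genes of the lineage were read from lists, which were also chosen with earlier results of these data known. With amyloid-beta in WT cultures at 8 h, 2.05% of all genes fell, and the median over all genes was -0.0042. Of 26 further precursor genes, 6 fell and none rose with amyloid-beta in WT cultures at 8 h (median -0.82), with Sox8, a relative of Sox10, at -1.12 and Cacng4, a calcium channel subunit, at -1.01; voom called 4 and quantile normalisation left 3. Of 7 ligands and partners of the receptors, 2 fell: Cntn1, the contactin that Ptprz1 binds (-1.26), and Ptn, pleiotrophin (-0.82). Of 11 genes of differentiating oligodendrocytes 0 passed (1 at an unadjusted p under 0.05, 0 by voom), and of 11 myelin genes 0 passed (0 at an unadjusted p under 0.05, 0 by voom; median 0.07). Markers of other cells moved in the same libraries, again to be read against the 2.05% of all genes that fell. Of 9 astrocyte genes 4 fell (median -0.90, with Gja1 at -1.38, Gfap at -1.35 and Aqp4 at -1.27), of 8 neuron genes 2 fell (Dcx at -1.26 and Tubb3 at -0.88), and of 12 microglia genes 1 fell (Cx3cr1 at -0.79). With quantile normalisation 0 of the astrocyte and 0 of the neuron genes passed, while voom called 1 astrocyte and 2 neuron genes. In PD-1 KO cultures at 8 h 0 genes of any of these lists passed with limma, while voom called 2 myelin and 2 microglia genes as lower; an unadjusted p under 0.05 was found for 1 of the 26 further precursor genes, 3 of the 11 myelin genes, 1 of the 6 fibroblast and pericyte genes and 2 of the 8 neuron genes.

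The summed astrocyte list was at 1219 to 1327 in WT libraries with amyloid-beta at 8 h, against 1727 to 3199 without it, and the summed microglia list at 86271 to 87538, against 97794 to 111932. All 9 astrocyte genes of the table were detected, Gfap at 168 to 239 with amyloid-beta, against 296 to 853 without it, and their part in the fall of the precursor genes was not tested. In PD-1 KO cultures at 8 h, where 0 of the 8 precursor genes passed, the summed microglia list was at 61263 to 70184.9 with amyloid-beta, against 83145 to 104915 without it, and 9 of its 12 genes had an unadjusted p under 0.05, with 0 past the adjusted threshold and 2 called by voom. In WT libraries at 8 h the 6 fibroblast and pericyte genes in the table, summed, were at 2303 to 2387 with amyloid-beta, against 2048 to 2639 without it. Of these genes 0 passed in WT cultures (0 at an unadjusted p under 0.05, 0 by voom). In PD-1 KO libraries at 8 h their sum was at 1927 to 2254 with amyloid-beta, against 1774 to 1881 without it. There 0 passed as well (1 at an unadjusted p under 0.05, 0 by voom). Between 8 h and 2 h with amyloid-beta, 20 of the 26 further precursor genes fell in WT cultures, where 13.8% of all genes did (median -1.16), with Rlbp1 at -2.29, Zfp488, a cofactor of the lineage, at -2.27 and Cacng4 at -2.08, and with quantile normalisation 14 did. In the same comparison 11 of the 12 microglia genes fell and 1 rose. In PD-1 KO cultures 0 of the 26 passed there (2 at an unadjusted p under 0.05, 0 by voom). The change was more negative in WT for 8 of the 26 genes, Lingo1 (2.21), Rlbp1 (2.04) and Cacng4 (1.40) among them (3 of the 26 with quantile normalisation), and for Cntn1 (1.83) and Cx3cr1 (1.29). Over all genes the share with a change more negative in WT was 1.33%.

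**Figure D3:**
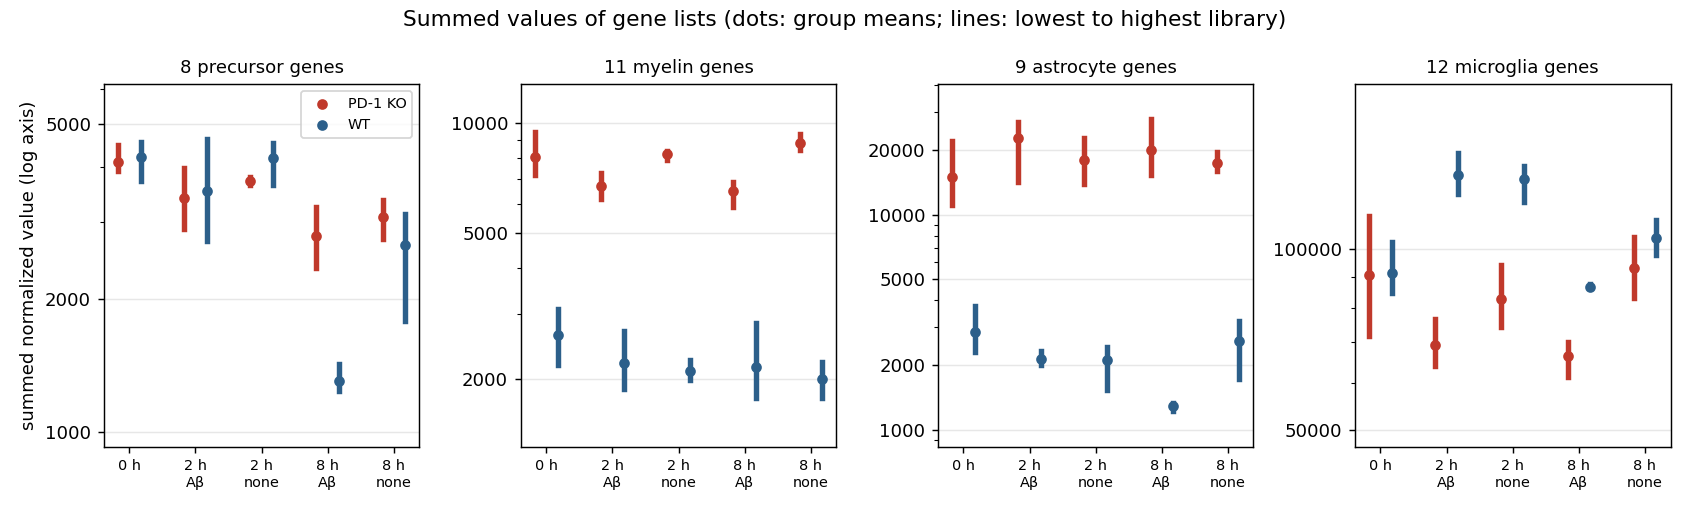
Summed normalised value (log axis) of the 8 precursor genes and of lists of 11 myelin, 9 astrocyte and 12 microglia genes, with PD-1 KO left of WT in each condition; dots are means of 3 libraries, lines run from the lowest to the highest library, and Aβ is amyloid-beta. The myelin and astrocyte sums of PD-1 KO libraries lie above those of all WT libraries, while those of the precursor genes overlap except at 8 h with amyloid-beta.

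The second question was how libraries labelled PD-1 KO differed from those labelled WT. The 8 genes split: over the mean of the 5 conditions, Cspg4 and Ptprz1 had more RNA in PD-1 KO libraries, while Pdgfra, Sox10, Olig2 and Gpr17 had less. Ptprz1 differed by 0.75 ± 0.12 (adjusted p = 2.71e-06), Cspg4 by 0.46 ± 0.07 (adjusted p = 1.98e-06), Pdgfra by -0.67 ± 0.16 (adjusted p = 0.000886), Sox10 by -0.38 ± 0.09, Olig2 by -0.33 ± 0.09 and Gpr17 by -0.80 ± 0.31 (adjusted p = 0.0312). Olig1 (-0.01) and Nkx2-2 (0.21) did not pass. Genotype calls were common: 30.3% of all genes were higher and 29.1% lower, and the 2 higher and 4 lower of 8 are to be read against that. Quantile normalisation left these 6 signs as they were and turned Nkx2-2 to -0.59, with adjusted p = 0.0218, whereas with array weights Nkx2-2 passed in the other direction (0.45, adjusted p = 0.0386). Pdcd1 goes against the genotype labels, as given above, so each direction here is that of the labels. Gpr17 lost its call with voom and when each of 9 libraries was left out in turn (-0.76 to -0.62): PD-1 KO 0 h replicate 2, PD-1 KO 2 h amyloid-beta replicate 2, PD-1 KO 2 h replicate 3, PD-1 KO 8 h replicate 1, WT 0 h replicate 1, WT 2 h amyloid-beta replicate 2, WT 2 h replicate 3, WT 8 h amyloid-beta replicate 1 and WT 8 h replicate 1.

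Mean differences hid a change of sign, because Pdgfra was lower in PD-1 KO libraries at 2 h and higher in them at 8 h with amyloid-beta. At 0 h, Pdgfra was at 440.0, 368 and 439.9 in PD-1 KO libraries, against 960.5, 792 and 707 in WT libraries. The groups did not overlap, but the difference of -0.97 did not pass (adjusted p = 0.0597). The share of all genes without overlap was not counted for the genotype comparisons. Cspg4 was at 583, 673 and 596 in PD-1 KO libraries, against 354, 459 and 494 in WT libraries, and was the 1 gene of 8 that passed at 0 h (0.51 ± 0.16, adjusted p = 0.0184), where 13.8% of all genes were higher and 6.88% lower. Its call was lost without PD-1 KO 0 h replicate 2 (0.45) or WT 0 h replicate 1 (0.37).

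At 2 h without amyloid-beta 5 genes passed, 1 higher and 4 lower in PD-1 KO libraries, against 18.8% and 13.4% of all genes. Sox10 was at 140.3, 121 and 102 in PD-1 KO libraries, against 229, 231 and 206 in WT libraries, and Olig2 at 163, 153 and 190.3, against 287, 313 and 253. The groups overlapped in neither, and the share of all genes without overlap was not counted. The differences were -0.88 ± 0.20 for Sox10 (adjusted p = 0.000982), -0.75 ± 0.21 for Olig2 (adjusted p = 0.007), -1.40 ± 0.37 for Pdgfra (adjusted p = 0.00411), -2.31 ± 0.70 for Gpr17 (adjusted p = 0.0126) and 0.64 ± 0.16 for Cspg4 (adjusted p = 0.00239). Gpr17 was at 10.9, 11.5 and 1 in PD-1 KO libraries, against 22.3, 35.2 and 42.1 in WT libraries, and without PD-1 KO 2 h replicate 3, the library at the floor, it did not pass (-1.44, adjusted p = 0.143).

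At 2 h with amyloid-beta 5 genes passed again, 2 higher and 3 lower, against 22.2% and 16.7% of all genes. Pdgfra (-1.75 ± 0.37), Sox10 (-0.93 ± 0.20) and Olig2 (-0.80 ± 0.21) were lower in PD-1 KO libraries, each with no overlap between the groups. How many of all genes lacked overlap was not counted here. Cspg4 was at 610.4, 582 and 623 in PD-1 KO libraries, against 294, 432 and 474 in WT libraries, and was higher by 0.63 ± 0.16 (adjusted p = 0.00211). Ptprz1 was at 2010.0, 1865 and 1239 in PD-1 KO libraries, against 616, 1719.9 and 1124 in WT libraries. The groups overlapped and its call (0.65, adjusted p = 0.048) was lost in 5 of 11 other settings, without PD-1 KO 2 h amyloid-beta replicate 1 (0.52) or 2 (0.57), and without WT 2 h amyloid-beta replicate 1 (0.26) or 3 (0.70). Gpr17 passed (-2.32) with quantile normalisation and (-2.17) without PD-1 KO 2 h amyloid-beta replicate 1. Quantile normalisation moved the median of all genes by -0.13 in this comparison and by -0.11 in that without amyloid-beta.

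At 8 h without amyloid-beta, Ptprz1 was at 1539.9, 1554 and 1174 in PD-1 KO libraries, against 913, 1089.5 and 592 in WT libraries, and was the 1 gene of 8 that passed (0.75 ± 0.26, adjusted p = 0.0323), against 18% of all genes higher and 9.01% lower; with quantile normalisation, as with array weights, 3 passed. The call was lost without PD-1 KO 8 h replicate 1 (0.69), PD-1 KO 8 h replicate 2 (0.68) or WT 8 h replicate 3 (0.50). Without WT 8 h replicate 3, Pdgfra (-0.99, adjusted p = 0.0276) and Olig2 (-0.67, adjusted p = 0.00497) were lower in PD-1 KO libraries.

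At 8 h with amyloid-beta 5 genes were higher and none lower in PD-1 KO libraries, against 22% and 11.7% of all genes, and all 8 differences were positive (median 0.86). Ptprz1 was at 1163, 1843 and 1339 in PD-1 KO libraries, against 456, 479 and 454 in WT libraries, a ratio of means of 3.13 and a log2 difference of 1.62 ± 0.26 (adjusted p = 1.42e-05). Olig1 was at 336, 528 and 421 in PD-1 KO libraries, against 205, 189.7 and 263 in WT libraries, a difference of 0.95 ± 0.22 (adjusted p = 0.0012). Both were apart in every library and kept their calls whichever of the 6 libraries was left out. Pdgfra was at 70.6, 161 and 127 in PD-1 KO libraries, against 44.6, 38.2 and 77.3 in WT libraries, with an overlap and a difference of 1.14 ± 0.37 (adjusted p = 0.0165). Sox10 (0.62, adjusted p = 0.0151) and Cspg4 (0.43, adjusted p = 0.0338) were higher with no overlap. Genes without overlap were not counted over the whole table in this comparison.

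Those last 3 calls depended on the libraries, and those of Pdgfra and Sox10 also on the scaling. Pdgfra was not called without PD-1 KO 8 h amyloid-beta replicate 2 (0.88) or 3 (1.05), or WT 8 h amyloid-beta replicate 1 (1.04) or 2 (0.93), nor with quantile normalisation or voom. Cspg4 was not called without PD-1 KO 8 h amyloid-beta replicate 1 (0.43) or 3 (0.35), or WT 8 h amyloid-beta replicate 1 (0.42) or 2 (0.39), nor in limma without a trend. Sox10 was not called without PD-1 KO 8 h amyloid-beta replicate 1 (0.54) or WT 8 h amyloid-beta replicate 1 (0.44), and quantile normalisation turned it to -0.057 (adjusted p = 0.847).

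**Figure D4:**
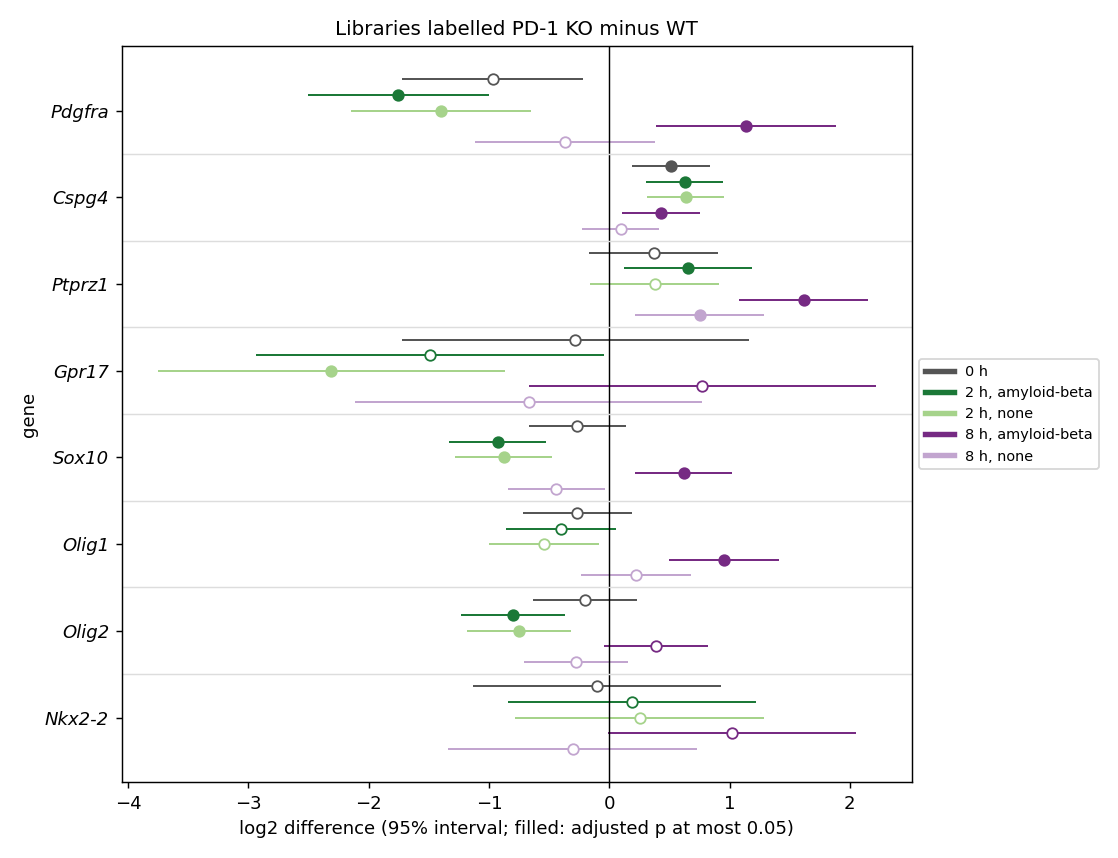
Log2 difference of each precursor gene in libraries labelled PD-1 KO minus WT (points, with 95% intervals) in the 5 conditions; filled points passed the adjusted threshold. Pdgfra lies at -1.75 at 2 h with amyloid-beta and at 1.14 at 8 h with amyloid-beta, while Cspg4 lies right of 0 in every condition, from 0.10 to 0.64; Sox10 at 8 h with amyloid-beta turns to -0.057 with quantile normalisation.

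Genes of later lineage stages and of astrocytes moved with the genotype label as well. Over the mean of the 5 conditions, 10 of 11 myelin genes were higher in PD-1 KO libraries (median 2.37, with Mog at 2.75, Mobp at 2.71 and Ermn at 2.69), as were all 9 astrocyte genes (median 2.70, with Gfap at 4.03, Gja1 at 3.64 and Aqp4 at 3.45). Their summed levels did not overlap: myelin genes were at 5906 to 9414 in PD-1 KO and 1771 to 3109 in WT libraries, and astrocyte genes at 11126 to 27818 in PD-1 KO and 1219 to 3755 in WT libraries. Of the 26 further precursor genes, 12 were higher and 3 lower (median 0.27, with Id4 at 3.52, C1ql1 at 2.62 and Nkx6-2 at 2.42), and with quantile normalisation 10 were higher and 10 lower (median -0.02). Id4 and Nkx6-2 encode transcription regulators.

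Of the 7 ligands and partners 5 were higher and none lower in PD-1 KO libraries, among them Tnc, tenascin C (1.71), Ptn (1.26) and Mdk, midkine (1.14), all known to bind the Ptprz1 protein, and with quantile normalisation 4 of the 7 were higher and 2 lower. Of 11 genes of differentiating oligodendrocytes 5 were higher and 1 lower, with Myrf, a regulator of myelin genes, at 2.40. Fibroblast and pericyte genes were split, 3 higher and 2 lower of 6. The 3 with the largest difference past the threshold, Dcn at 4.03, Lum at 2.20 and Pdgfrb at 1.36, were all higher. The summed list had a mean of 1887 in PD-1 KO against 2945 in WT libraries at 0 h. Without amyloid-beta it was at 1666 against 1906 at 2 h and 1815 against 2293 at 8 h. With amyloid-beta it was at 1959 against 1851 at 2 h and 2144 against 2357 at 8 h. Rgs5, Kcnj8, Abcc9 and Vtn of this list were not analysed. Neuron genes were 3 higher and 5 lower of 8, and microglia genes 4 higher and 6 lower of 12. All these counts are over the mean of the 5 conditions, where 30.3% of all genes were higher and 29.1% lower, and several of them, such as the 4 higher of 12 microglia genes and the 2 lower of 6 fibroblast and pericyte genes, are near those shares. Astrocytes are known to express Ptprz1 and pericytes Cspg4, and the part of those cells in the higher values of both genes was not tested. At 8 h with amyloid-beta, 18 of the 26 further precursor genes were higher in PD-1 KO libraries (median 1.09), where 22% of all genes were, or 9 with quantile normalisation (median 0.38).

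The third question was how the genes moved with time in culture without amyloid-beta, where 8 h cannot be told apart from the gap in library numbers. Olig2 was the 1 gene of 8 that passed in PD-1 KO cultures, at 2 h as at 8 h, while in WT cultures none passed at 2 h, and Pdgfra and Olig1 fell along with it at 8 h. Olig2 was also lower at 2 h in WT cultures, with a difference of -0.63 (adjusted p = 0.0833). Whether the 2 h minus 0 h change differed between the genotypes was not tested. In PD-1 KO libraries Olig2 was at 389, 399.7 and 356 at 0 h, at 163, 153 and 190.3 at 2 h and at 203, 193 and 203 at 8 h. In WT libraries it was at 499, 424 and 397 at 0 h, at 287, 313 and 253 at 2 h and at 333, 302 and 140.4 at 8 h. All values at 2 h were below all values at 0 h in both genotypes, and the share of all genes for which this holds was not counted. In PD-1 KO cultures Olig2 fell by 1.18 ± 0.21 on the log2 scale at 2 h (adjusted p = 0.00341), the 1 gene of 8 that fell, where 0.277% of all genes fell, and it was still lower at 8 h (-0.93, adjusted p = 0.00905), again as the 1 gene of 8, where 1.79% of all genes fell. Both calls held whichever of the 6 libraries compared was left out.

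In WT cultures 0 of the 8 genes passed at 2 h with limma (2 at an unadjusted p under 0.05, 1 called by voom), against 4.75% of all genes. The Olig2 difference was -0.63 (interval -1.06 to -0.19, adjusted p = 0.0833), and Sox10 was at 229, 231 and 206 at 2 h, against 159.9, 164 and 136 at 0 h, with a difference of 0.54 (interval 0.13 to 0.94, adjusted p = 0.116). At 8 h 3 genes were lower than at 0 h, against 3.05% of all genes: Pdgfra (-1.32, adjusted p = 0.0293), Olig1 (-1.03, adjusted p = 0.00457) and Olig2 (-0.86, adjusted p = 0.0132). All 3 calls were lost without WT 8 h replicate 3, with values of -0.70, -0.64 and -0.47. Pdgfra was also lost without WT 0 h replicate 1 (-1.20), 2 (-1.34) or 3 (-1.42) and in 4 of 11 other settings, and Olig2 without WT 0 h replicate 1 (-0.76). The genotype difference of the 8 h minus 0 h change passed for 0 of the 8 genes with limma and voom, with none at an unadjusted p under 0.05, and for 0.270% of all genes.

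The 8 genes did not share a profile over the 10 group means. Likeness was the root mean square difference of log2 group means after each gene was centred on its own mean, so that 0 is an identical profile. The closest pair was Sox10 and Olig1 (0.26), and the farthest was Pdgfra and Cspg4 (1.28). The neighbouring genes Olig1 and Olig2 differed by 0.40. Pdgfra and Gpr17, at 0.47, were closer to each other than either was to any other of the 8.

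Among the 10720 genes with a mean value of at least 50, the 3 nearest to Pdgfra were Slc1a1 (0.40), Nell2 (0.51) and Lppr1 (0.54), and the 3 nearest to Gpr17 were Slc1a1 (0.36), Nell2 (0.46) and Pdgfra itself. Sox10 was nearest to Cntn1 (0.14), B3gat1 (0.16) and Bex2 (0.18), and Olig1 to Ccna2 (0.17), Cntn1 (0.17) and Cspg5 (0.18). Olig2 was nearest to Pcdh17 (0.25), Grin3a (0.27) and B3gat1 (0.31), and Nkx2-2 to Sox8 (0.19), Kifc1 (0.20) and Ptchd2 (0.23). Cspg4 was nearest to Bmpr1a (0.08), Entpd4 (0.08) and Psd3 (0.08), and Ptprz1 to Zfp354c (0.10), Tcf19 (0.11) and Fam171a2 (0.11). Small distances for Cspg4 go with its flat profile, whose own root mean square about its mean was 0.26, against 1.21 for Pdgfra. Part of the exons of Gpr17 (188 bases, 3.62%) overlaps Lims2, part of Nkx2-2 (278 bases, 9.67%) its antisense gene Nkx2-2os, part of Olig1 (157 bases, 7.26%) Gm15966 and part of Pdgfra (456 bases, 4.55%) Gm42802, all on the other strand; the labels do not say whether counting used strand, so reads there cannot be told apart.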

How the data were processed

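RNA-seq of 30 libraries in 10 groups of 3 was used. The deposited table holds a normalised signal for each gene: the values are whole reads over a constant of the library (within 0.05 up to 5000 reads), with 1 as the lowest value. Per the submitters' processing notes, HISAT 0.1.5, Partek 6.6, R 3.0.2, DESeq2 and mm10 were used, with no role given. The floor hides up to 4 reads, and 3 reads correspond to a value of 6.02 to 6.14 in the PD-1 KO libraries and 4.41 in the WT library where Gpr17 was at the floor; such limits cover counting error only. Every gene of the table reaches 12.2 in some library.

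Values were tested as log2(value + 1), so that fold changes of low genes are understated, where at least 3 libraries reached 10 (13722 genes), with limma 3.58.1 in R 4.3.3 (1 mean per group, intensity trend, 20 residual degrees of freedom) and Benjamini-Hochberg adjustment per comparison at 0.05. There were 19 comparisons and 4 added after seeing the data. An exact permutation test of 3 against 3 libraries cannot go below p = 0.1 and was not used. Replicates of each group differed by more than sampling noise. The steps were tested on simulated data. Symbols were matched to GENCODE M21 (GRCm38, the build also called mm10), and promoters come from RefSeq (GRCm38.p6). Neu4, Bmp4, Opalin, Gjb6, Rgs5, Kcnj8, Abcc9 and Vtn of the lists were not analysed here. The text names all 8 genes, up to 3 genes of a list with the largest difference among those past the threshold, and the 3 nearest profiles of each gene; 1 gene of a list is not reported here. The 8 genes and the lists were chosen with earlier results of these data known. Alternatives were pseudocounts 0 and 10, no filter or a filter at 50, quantile normalisation, TMM factors, fits of the compared groups alone, limma without trend, robust or with array weights, each library left out, and, added later, voom on the recovered reads. Figures were drawn with matplotlib 3.10.9.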

Additional observations from a re-analysis of the deposited data

Results flagged for a closer look

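In WT cultures, the amyloid-beta effect on Pdgfra at 8 h was lower than that at 2 h by a log2 difference of -2.32 (adjusted p = 0.046), a difference between times in the same contrast. The call was lost in 5 of 11 other settings (adjusted p up to 0.291) and in 9 of 12 leave-outs of a library (adjusted p up to 0.208).

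The change between 2 h and 8 h with amyloid-beta differed between the genotype labels, PD-1 KO minus WT, by 2.89 for Pdgfra, 1.54 for Sox10, 1.35 for Olig1 and 1.19 for Olig2 on the log2 scale, all past the threshold of the interaction test. The calls of Pdgfra and Sox10 held in all 11 other settings and 12 leave-outs, while that of Olig1 was lost in 1 setting and 6 leave-outs and that of Olig2 in 3 settings and 9 leave-outs. The comparison was added after the data were seen, and Pdcd1 goes against the genotype labels.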

How the results depend on the processing

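No paired analysis was possible because the labels give no replicate numbers that link libraries across groups. The planned edgeR test on recovered reads was not run, since values at the floor hide up to 4 reads. Voom on the recovered reads took its place, chosen after seeing the data. It also reads values at the floor as 0 reads, so it shares that limit. Of 252 counts of called precursor genes under other settings, 227 were equal or stayed within 1.5 times. Counts that were 0 in the main fit and stayed 0 are among these 227, so the number says less of the counts above 0. For single genes 1902 values stayed on their side of the threshold, 35 newly passed, 31 no longer passed and 2 turned direction. Quantile normalisation turned Sox10 in PD-1 KO minus WT at 8 h with amyloid-beta to -0.057 and Nkx2-2 in the mean of 5 conditions to -0.59. It gave 3265 genes higher and 6262 lower in PD-1 KO libraries over the mean of 5 conditions, against 4163 and 3995, and 1518 and 1428 at 0 h, 2095 and 2841 at 2 h, 2313 and 3399 at 2 h with amyloid-beta, 1835 and 2146 at 8 h, and 2155 and 3077 at 8 h with amyloid-beta. The causes were not tested.

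The counts that moved were these. For the amyloid-beta effect, array weights gave 1 gene in PD-1 KO at 8 h, 2 in WT at 2 h, 7 in WT at 8 h and 3 for the genotype difference at 8 h, and the fit of the compared groups alone gave 1 in WT at 8 h. For the 8 h minus 2 h effect in WT, pseudocount 10, quantile normalisation, the compared groups alone, no trend and robust limma each gave 0, and array weights 4. For PD-1 KO minus WT at 0 h, pseudocount 10, the compared groups alone, array weights and voom each gave 2. At 8 h quantile normalisation and array weights each gave 3, and no trend and voom 0, while at 8 h with amyloid-beta quantile normalisation gave 3. Between 2 h and 0 h in WT, array weights gave 2 and voom 1, and between 8 h and 0 h the compared groups alone gave 0. Between 8 h and 2 h with amyloid-beta, array weights gave 4 in PD-1 KO, and no trend gave 2 for the genotype difference.

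Leaving out each library in turn gave 2 to 5 genes for amyloid-beta in WT at 8 h, 0 to 3 for its 8 h minus 2 h effect, 0 to 1 for PD-1 KO minus WT at 0 h, 4 to 5 at 2 h with or without amyloid-beta, 0 to 2 at 8 h, 2 to 5 at 8 h with amyloid-beta and 5 to 6 over the mean. It gave 0 to 3 for 8 h minus 0 h in WT, 5 to 7 for 8 h minus 2 h with amyloid-beta in WT, and 2 to 4 for its genotype difference. Depth limits Gpr17 and Nkx2-2 most, since several libraries held few or no reads of them.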
